A study of Mus musculus with 2 samples.

Results

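The hepatocyte identity transcription factors described here are Hnf4a, Foxa1, Foxa2, Foxa3, Onecut1, Prox1, Nr5a2, Nr1i2 and Nr1i3. They were chosen by gene symbol, 9 of the 32285 genes in a single-cell RNA-Seq count matrix of mouse liver. The matrix joins 2 libraries, 1 from a sample labelled Cebp KO and 1 from a sample labelled Cebp WT. Both came from mice given a NASH-promoting HFCFD (high-fat, high-cholesterol, high-fructose diet) at 40% for 2 weeks. The study deleted Cebpa in hepatocytes by crossing Cebpa fl/fl mice, on a C57BL/6N background, with albumin-driven Cre lines, either constitutive or ERT2. The labels do not say which of these lines gave the single-cell livers, nor the age or number of the mice. Livers were perfused, digested and purified on Percoll, and each sample was loaded on 1 lane aimed at up to 6000 cells with 10x Genomics 3′ chemistry.

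Barcodes in the matrix end in suffix 1 or 2, called library 1 and library 2 below. No label ties a suffix to a genotype, so neither library was given one and the ratios below carry no genotype. Cebpa itself, the targeted gene, gave 17 UMIs (unique molecular identifiers, or counted transcripts) or 1.25 CPM (UMIs per 1000000) in deep hepatocytes of library 1, against 828 UMIs or 109 CPM in library 2. With 1 library per genotype there was no replicate and no test was possible. The intervals given are exact 95% intervals of counting error only, and leave out the variation between mice and between captures.

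Library 1 held 60048646 UMIs over 17313 barcodes and library 2 held 52355243 over 15003. After filters on UMIs, genes and mitochondrial share, 11617 and 6088 barcodes were kept. Cells were assigned to types by marker genes, and hepatocytes of at least 5000 UMIs, called deep hepatocytes, numbered 528 and 500 with medians of 26778 and 13066.5 UMIs. All 12 hepatocyte markers were above 10 CPM in them in both libraries, but so they were in the B-like and T-like cells pooled. The summed cholangiocyte markers of deep hepatocytes reached 138 and 148 CPM, their endothelial markers 15.7 and 29.7 CPM, their B cell markers 28.9 and 11.6 CPM and their T cell markers 13 and 13.7 CPM. These same lists set the gate, so the values describe it and do not test it. Hepatocytes under 5000 UMIs, called shallow, numbered 8095 and 3332 with medians of 1100 and 1187 UMIs. Of the barcode sequences, 81 occurred in both libraries, 34 were kept in both and 0 were deep hepatocytes in both.

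Hepatocytes are held in their differentiated state by a network of transcription factors that bind each other's genes and the genes of liver metabolism. HNF4A is a nuclear receptor that drives apolipoprotein, clotting factor and urea cycle genes. FOXA1, FOXA2 and FOXA3 are forkhead proteins that open liver chromatin, and ONECUT1 (HNF6) works in hepatocytes and in the bile ducts. PROX1 is a homeodomain factor of the early liver bud that is also known from lymphatic endothelium, and NR5A2 (LRH-1) is a nuclear receptor of bile acid synthesis. NR1I2 (PXR) and NR1I3 (CAR) are the receptors that switch on drug-metabolising enzymes when foreign compounds enter the cell.

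The genes lie on GRCm38 (mm10) as annotated in GENCODE M21. Hnf4a is at chr2:163506808-163572910 on the plus strand, Foxa1 at chr12:57540628-57546916, Foxa2 at chr2:148042877-148046969 and Foxa3 at chr7:19013284-19023538 on the minus strand. Onecut1 is at chr9:74861921-74891781 on the plus strand, and Prox1 at chr1:190118035-190170714 and Nr5a2 at chr1:136842571-136960448 on the minus strand. Nr1i2 is at chr16:38248323-38294824 on the minus strand and Nr1i3 at chr1:171213970-171220701 on the plus strand. Genes on the opposite strand overlap Hnf4a (Hnf4aos), Prox1 (Prox1os and Gm28172) and Nr1i3 (Tomm40l). The sources used here do not state whether the counting used strand, so values of these 3 genes may include reads of the partner. Onecut1 overlaps Gm20649, a lincRNA on the same strand that is not among the genes of the matrix, and Hnf4a overlaps Gm25881 on its own strand, so that strand-aware counting would not separate these pairs.

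The bases before annotated starts of 3 factors are shown because Onecut1 and Foxa2 were among the factors that differed most between the libraries and because a C/EBP match occurred at Nr5a2. Each run is 250 bases, 5′ to 3′ on the strand of the gene, read from RefSeq promoter windows on GRCm38.p6 and free of annotated exons, with capitals marking a motif match. They lie at chr9:74861671-74861920 for Onecut1, chr2:148046970-148047219 for Foxa2 and chr1:136953631-136953880 for Nr5a2, the last before an internal start of that gene.
Onecut1: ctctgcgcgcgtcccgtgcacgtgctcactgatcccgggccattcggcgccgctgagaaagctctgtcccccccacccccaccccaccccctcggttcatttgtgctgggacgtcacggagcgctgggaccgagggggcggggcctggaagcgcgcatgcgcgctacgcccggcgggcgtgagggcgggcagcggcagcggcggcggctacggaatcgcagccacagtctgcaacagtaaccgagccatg
Foxa2: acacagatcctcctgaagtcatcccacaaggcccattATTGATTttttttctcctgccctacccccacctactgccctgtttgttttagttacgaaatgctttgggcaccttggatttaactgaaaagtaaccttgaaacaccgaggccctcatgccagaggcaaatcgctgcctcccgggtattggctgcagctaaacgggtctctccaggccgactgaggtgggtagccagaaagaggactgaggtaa
Nr5a2: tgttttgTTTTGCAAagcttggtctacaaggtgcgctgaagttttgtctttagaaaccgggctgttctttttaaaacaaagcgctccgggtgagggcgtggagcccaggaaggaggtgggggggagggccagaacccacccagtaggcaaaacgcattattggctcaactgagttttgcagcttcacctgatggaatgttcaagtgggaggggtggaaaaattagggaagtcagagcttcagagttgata

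The windows searched ran from 250 bases before to 50 bases after a start, on both strands, over 14 windows of the 9 genes and 32851 windows in all. The C/EBP letters TTGCNNAA were in 10.8% of all windows and in 1 member window, that of Nr5a2. The ONECUT letters ATTGATT were in 2.86% of all windows and in 2 member windows, 1 each of Foxa2 and Hnf4a. The FOXA letters TGTTTAC were in 3.65% of all windows and in 1 member window, that of Foxa1, and the HNF4A letters CAAAGTCC were in 1.42% and in 0 member windows. A match is only a run of letters, and none of these windows was measured for binding.

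Hnf4a was higher in deep hepatocytes than in any other cell type of either library. Its level in deep hepatocytes was 214 CPM (206 to 222, 2909 UMIs) in library 1 and 205 CPM (195 to 216, 1557 UMIs) in library 2. The ratio of library 1 to library 2 was 1.04, and its interval of 0.979 to 1.11 included 1. Lymphocytes, the B-like and T-like cells pooled and used as the measure of free RNA, held 29.3 and 18.0 CPM. Deep hepatocytes were 7.31-fold (5.97 to 9.04) and 11.4-fold (8.55 to 15.6) above lymphocytes. Across the immune types, 8 in library 1 and 9 in library 2, the level ran from 10.6 through a median of 22.2 to 91.2 CPM in library 1 and from 0 through 16.6 to 67.4 CPM in library 2, with neutrophils highest in both. The next type below deep hepatocytes was the shallow hepatocytes at 119.8 and 109.7 CPM, with intervals clear of those of the deep cells.

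The 3 forkhead genes were also above lymphocytes, with Foxa1 resting on the fewest UMIs of the 3. Foxa3 reached 63.5 CPM (59.3 to 67.9) and 47.2 CPM (42.5 to 52.4) in deep hepatocytes, 5.01-fold and 8.23-fold above lymphocytes, and was highest in deep hepatocytes in both libraries. Foxa2 reached 45.8 CPM (42.3 to 49.5, 623 UMIs) and 19.7 CPM (16.6 to 23.1, 149 UMIs), 6.07-fold (4.07 to 9.46) and 12.8-fold (4.91 to 47.8) above lymphocytes. Foxa1 was at 16.6 CPM (14.5 to 18.9, 226 UMIs) and 6.20 CPM (4.56 to 8.24, 47 UMIs). The lymphocytes of library 2 gave 1 UMI of Foxa1, which leaves its fold of 16.2 with an interval of 2.77 to 654.

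Onecut1 was at 167 CPM (161 to 174, 2277 UMIs) in deep hepatocytes of library 1 and at 47.1 CPM (42.3 to 52.2, 357 UMIs) in those of library 2. These were 7.11-fold and 9.47-fold above lymphocytes, at 23.5 and 4.97 CPM. In the lymphocytes of library 1 a single cell held 18 of the 78 UMIs. Prox1 was at 91.3 CPM (86.3 to 96.5) and 74.1 CPM (68.1 to 80.5), 10.1-fold and 11.4-fold above lymphocytes. Nr5a2 was at 55.8 CPM (51.9 to 59.9) and 50.1 CPM (45.2 to 55.4), 9.73-fold and 8.19-fold above lymphocytes.

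The xenobiotic receptors differed in how far they stood above lymphocytes. Nr1i2 was at 24.6 CPM (22 to 27.3) and 30.5 CPM (26.7 to 34.7), 5.09-fold and 9.96-fold above lymphocytes. Nr1i3 was at 10.8 CPM (147 UMIs) and 13.3 CPM (101 UMIs), only 1.63-fold (1.04 to 2.68) and 2.32-fold (1.34 to 4.30) above lymphocytes. Its highest levels were in other types, at 50.02 CPM from 3 UMIs in stellate-like cells of library 1 and at 32.9 CPM from 16 UMIs in conventional dendritic-like cells of library 2. A call past 2-fold with at least 10 CPM in either group took 8 of 9 factors above lymphocytes in library 1, all but Nr1i3, where 18.4% of all genes tested passed. In library 2 it took 8 of 8 tested, Foxa1 being under 10 CPM, where 19.3% of all genes passed. Apart from Hnf4a, and in library 1 Foxa3 and Onecut1, the factors called were under 10 CPM in lymphocytes. They entered the test only through deep hepatocytes, which favours a call, so these counts are no separate support.

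The highest levels of the other factors in the immune types rested on few UMIs. The highest value of Onecut1 there was 50.7 CPM in library 1 and 13.5 CPM in library 2, both in neutrophils, from 15 UMIs and 1 UMI. The former (28.4 to 83.6) lay below the 167 CPM of deep hepatocytes in its own library. Its interval included the 47.1 CPM of deep hepatocytes in library 2. Foxa3 reached 25.4 CPM (18 UMIs) in B-like cells of library 1 and 13.5 CPM (1 UMI) in neutrophils of library 2. Nr1i3 reached 13.5 CPM (4 UMIs) in neutrophils of library 1 and, as given above, 32.9 CPM in library 2. The interval in library 1, 3.68 to 34.6 CPM, included its level in deep hepatocytes, while that in library 2, 18.8 to 53.4 CPM, lay above it. Prox1 ran from 3.04 to 14.7 CPM in library 1 and from 0 to 17.9 CPM in library 2, and Nr5a2 from 0 to 20.5 CPM and from 0 to 15.7 CPM. Foxa1 did not exceed 6.76 CPM (2 UMIs) in library 1 or 2.24 CPM (1 UMI) in library 2. Neutrophils also held the most Alb of the immune types, at 14582 and 15301 CPM, and the part of free hepatocyte RNA in these values was not tested.

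**Figure D1:**
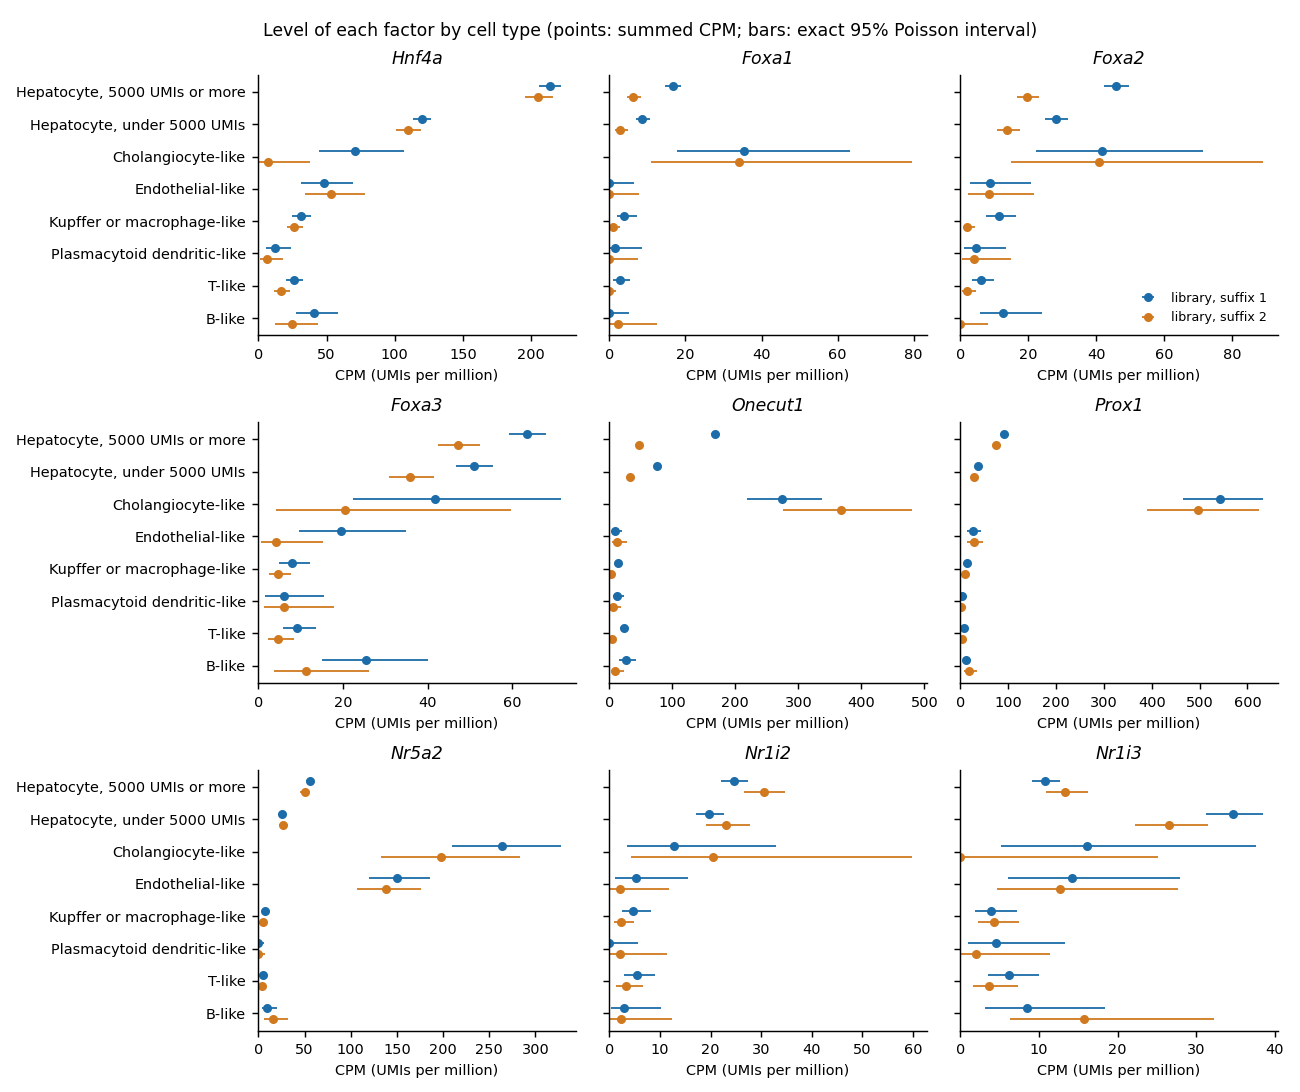
Level of each factor (horizontal axis, CPM, from 0) by cell type (vertical axis) in libraries 1 and 2. Points are UMIs summed over cells and bars exact 95% Poisson intervals. Hnf4a, Foxa3 and Nr1i2 were highest in deep hepatocytes, and Foxa1, Onecut1, Prox1 and Nr5a2 in cholangiocyte-like cells.

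To compare single cells at equal depth, each cell was thinned to 5000 UMIs. Hnf4a was detected in 64.6% (60.3 to 68.7) of deep hepatocytes in library 1 and 62.8% (58.4 to 67.1) in library 2, against 12% and 13.95% of lymphocytes. Onecut1 was detected in 51.7% (47.3 to 56.0) and 18.2% (14.9 to 21.9) of deep hepatocytes, against 9.13% and 3.10% of lymphocytes. Lymphocytes under 5000 UMIs, 410 and 442 cells, were left out of these shares, which rest on 241 and 129 lymphocytes of median 6479 and 6547 UMIs. Before thinning, Onecut1 had a UMI in 476 of 528 and 216 of 500 deep hepatocytes.

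Foxa2 was detected in 21.4% (18.0 to 25.2) and 9.40% (6.99 to 12.3) of thinned deep hepatocytes. Foxa1 was detected in 7.01% and 2.40%, and in 0 of the thinned lymphocytes, which allows shares of up to 1.52% and 2.82%. Prox1 was detected in 34.5% and 25.6%, Foxa3 in 29.0% and 21.6%, Nr5a2 in 21.6% and 20% and Nr1i2 in 11.2% and 12.2%. Nr1i3, in 7.01% and 6.80% of deep hepatocytes against 4.98% and 2.33% of lymphocytes, had the smallest excess over lymphocytes as a ratio of shares.

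At this depth a deep hepatocyte showed a median of 2 factors in each library. None of the 9 was seen in 24 cells (4.55%) of library 1 and 64 cells (12.8%) of library 2, and at least 5 were seen in 36 and 14 cells. Lymphocytes showed none in 70.1% and 76.0% of cells. A missing UMI limits only what this depth can detect and does not show that a cell lacked the factor.

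**Figure D2:**
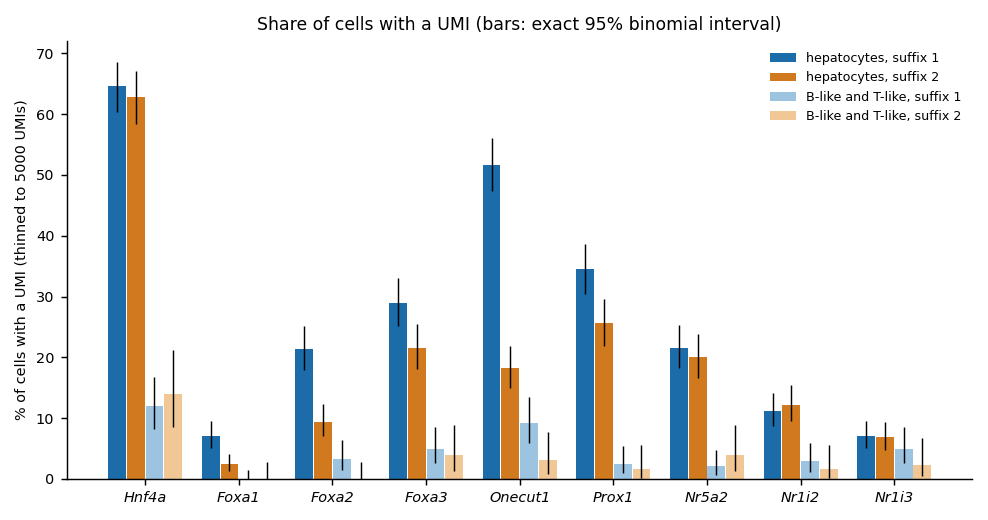
Share of deep hepatocytes and of lymphocytes with at least 1 UMI of each factor (vertical axis, percent, from 0) in each library, after thinning each cell to 5000 UMIs. Whiskers are exact 95% binomial intervals. Hnf4a stood at 64.6% in library 1 and 62.8% in library 2, and Onecut1 at 51.7% in library 1 and 18.2% in library 2.

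Between the libraries, 3 factors were past 2-fold in deep hepatocytes, and all 3 were higher in library 1. Onecut1 differed most, at 3.55-fold (3.18 to 3.99), then Foxa1 at 2.68-fold (1.95 to 3.75) and Foxa2 at 2.33-fold (1.95 to 2.80). Of all 6804 genes tested, 2.37% were past 2-fold higher in library 1 and 2.18% higher in library 2, where 0 of the 9 factors stood. The median log2 ratio was 0.30 over the 9 factors and 0.03 over all genes tested. The other 6, Hnf4a included, lay between 0.806-fold and 1.35-fold, with Foxa3 at 1.35-fold (1.19 to 1.53), Prox1 at 1.23-fold (1.11 to 1.36), Nr5a2 at 1.11-fold (0.983 to 1.26), Nr1i2 at 0.806-fold (0.679 to 0.957) and Nr1i3 at 0.811-fold (0.625 to 1.06). With a 10% limit on the mitochondrial share, which left 55 and 145 deep hepatocytes, the count was 4. The share over all genes was not taken at this limit, so this count has no background beside it. Prox1 (3.12-fold, 2.14 to 4.61) and Nr1i2 (2.03-fold, 1.16 to 3.56, from 29 and 27 UMIs) joined Foxa2 and Onecut1 above 2-fold in library 1, so that Nr1i2 turned direction, and Foxa1, from 8 and 4 UMIs, was too low to be tested.

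Shallow hepatocytes, which are other droplets of the same libraries, gave Onecut1 at 2.28-fold (1.93 to 2.72), Foxa1 at 3.03-fold (1.72 to 5.76) and Foxa2 at 2.03-fold (1.55 to 2.68) higher in library 1. Here Foxa2 and Onecut1 passed the call, 2 of 8 factors tested, against 1.99% of all genes. Foxa1, at 8.65 and 2.86 CPM, was too low to be tested. On the other side 2.67% of all genes were higher in library 2, and 0 of the 8 factors. The lymphocytes gave Onecut1 at 4.73-fold (2.61 to 9.28) and Foxa2 at 4.93-fold (1.70 to 19.5) higher in library 1. The endothelial-like cells gave 0.695-fold (0.168 to 2.73) and 1.04-fold (0.224 to 5.26) from 4 to 6 UMIs a library. The part of free RNA in the hepatocyte ratios was not tested. With the lymphocyte CPM of the same library subtracted, the factors past 2-fold were Foxa1, Foxa2 and Onecut1.

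Within matched ranges of UMIs per cell, Onecut1 was 3.97-fold (2.69 to 5.89) higher in library 1 at 5000 to 10000 UMIs, 2.89-fold (2.31 to 3.62) at 10000 to 20000 and 3.52-fold (3.02 to 4.11) above 20000. Foxa2 in the same ranges was 4.70-fold, 2.61-fold and 2.07-fold higher. Foxa1 was 1.54-fold (0.25 to 7.23), 5.33-fold (2.59 to 12.1) and 1.99-fold (1.36 to 3.02) higher, and so missed the call in the lowest and the highest of these ranges. Prox1 was between 1.08-fold and 1.57-fold and Nr1i2 between 0.687-fold and 0.940-fold in them. By mitochondrial share, with levels taken over non-mitochondrial UMIs, Onecut1 was 3.23-fold, 4.89-fold and 3.18-fold higher at up to 5%, 5 to 15% and 15 to 25%. Foxa2 was 3.70-fold, 2.94-fold and 1.997-fold (1.61 to 2.50) higher, the last just under the call in the range that held 344 and 274 of the cells. Foxa1 was 3.36-fold (0.281 to 29.3), 2.204-fold (1.17 to 4.51) and 2.56-fold (1.75 to 3.87) higher. Nr1i2 was 2.77-fold (1.2004 to 6.07) at up to 5%, from 11 UMIs in 27 cells of library 1 and 20 UMIs in 103 cells of library 2, but 0.638-fold (0.461 to 0.888) and 0.785-fold (0.635 to 0.973) in the higher ranges. Prox1 was 2.68-fold (1.40 to 4.97), 1.504-fold (1.21 to 1.89) and 1.02-fold (0.909 to 1.15). These ranges were chosen after seeing the data.

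**Figure D3:**
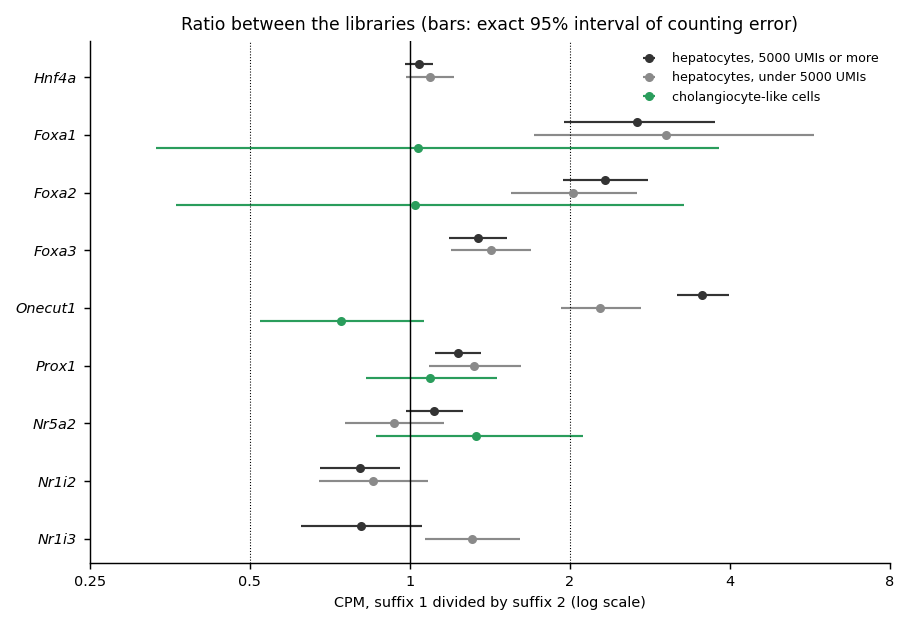
Ratio of each factor's level in library 1 to that in library 2 (horizontal axis, log scale) in deep hepatocytes, shallow hepatocytes and the other groups drawn, with exact 95% intervals as bars. In deep hepatocytes Onecut1 (3.55), Foxa1 (2.68) and Foxa2 (2.33) lie to the right of 2, and Hnf4a (1.04) lies at 1.

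Bile duct cells express several of these factors as well, so the cholangiocyte-like cells, 30 in library 1 and 16 in library 2, were examined next. They carried Krt19 at 293 and 409 CPM, Epcam at 692 and 906 CPM and Sox9 at 431 and 708.5 CPM. Prox1 was 544 CPM (465 to 632, 169 UMIs) in library 1 and 497 CPM (390 to 625, 73 UMIs) in library 2. It was seen in 27 of 30 and 14 of 16 cells, with at most 15 and 11 UMIs in a cell. This was 5.95-fold (5.04 to 6.998) and 6.71-fold (5.18 to 8.57) above deep hepatocytes.

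Nr5a2 was 264 CPM (82 UMIs) and 198 CPM (29 UMIs), 4.73-fold (3.72 to 5.94) and 3.94-fold (2.60 to 5.75) above deep hepatocytes. Onecut1 was 273 CPM (218 to 338) and 368 CPM (276 to 480), so that the ratio of library 1 to library 2 was 0.743 (0.522 to 1.07), while in deep hepatocytes it was 3.55. Its fold over deep hepatocytes was accordingly 1.63 (1.30 to 2.03) in library 1 and 7.81 (5.76 to 10.4) in library 2. Foxa1 was 35.4 CPM (11 UMIs) and 34.1 CPM (5 UMIs), a ratio of 1.04 (0.333 to 3.81), and Foxa2 was 41.8 and 40.9 CPM, a ratio of 1.02 (0.363 to 3.28).

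Hnf4a was the reverse. It was 70.8 CPM (44.3 to 107, 22 UMIs) in cholangiocyte-like cells of library 1 and 6.81 CPM (0.172 to 38.0, 1 UMI) in those of library 2, or 0.331-fold and 0.0332-fold of deep hepatocytes. Set against Alb, a hepatocyte transcript present in every type at 4898 CPM or more among the immune cells, Hnf4a per 1000 Alb UMIs was 6.23 and 0.783 in cholangiocyte-like cells, against 5.44 and 4.92 in deep hepatocytes and 2.95 and 1.72 in lymphocytes. On this scale cholangiocyte-like cells of library 1 (3.90 to 9.45) were not below deep hepatocytes. For Prox1 the same quantity was 47.9 and 57.2, against 2.32 and 1.78 in deep hepatocytes and 0.911 and 0.622 in lymphocytes. For Nr5a2 it was 23.2 and 22.7, against 1.42 and 1.201 in deep hepatocytes.

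Counted over the 9 factors in library 1, 3 of 9 factors were past 2-fold higher in cholangiocyte-like cells than in deep hepatocytes (Foxa1, Prox1, Nr5a2), where 56.3% of all genes were, and 1 was lower (Hnf4a), where 10.3% were. In library 2, 5 of 9 were higher (Foxa1, Foxa2, Onecut1, Prox1, Nr5a2), where 57.0% of all genes were, and 3 were lower as counted (Hnf4a, Foxa3, Nr1i3), where 12.4% were. Of these calls in library 2, Foxa2 (2.08-fold, 0.751 to 4.63) and Foxa3 (0.433-fold, 0.0888 to 1.28) had intervals that included 1. Nr1i3 had 0 UMIs in the 16 cells, which allows up to 25.1 CPM and so does not show it to be lower than the 13.3 CPM of deep hepatocytes. The share of factors higher was thus under the background in library 1 and at it in library 2, and is no result about the factors. Against lymphocytes, 9 of 9 and 7 of 8 factors were past 2-fold higher, where 28.6% and 32.3% of all genes were, with intervals that included 1 for Nr1i2 (0.649 to 8.26) and Nr1i3 (0.717 to 6.56) in library 1 and for Foxa3 (0.661 to 12.6) in library 2. Most of these factors again entered the test only through the group where they were higher, so the counts are no separate support.

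Endothelial-like cells, 104 and 99, carried Stab2 at 2696 and 1967 CPM and Kdr at 1705 and 1320 CPM. Nr5a2 was 150.5 CPM (120 to 186, 85 UMIs) and 138 CPM (106 to 176, 65 UMIs) in them, and was seen in 49 of 104 and 43 of 99 cells. The level was 26.3-fold (15.8 to 45.7) and 22.5-fold (12.9 to 41.7) above lymphocytes. The ratio between the libraries was 1.09 (0.781 to 1.53). Prox1, at 26.6 and 27.6 CPM from 15 and 13 UMIs, was much lower there, and Foxa1 gave 0 UMIs in either library. In library 1, 3 of 6 factors tested (Prox1, Nr5a2, Nr1i3) were past 2-fold above lymphocytes, where 24.5% of all genes were, and in library 2, 5 of 5 (Hnf4a, Onecut1, Prox1, Nr5a2, Nr1i3), where 26.4% were. Apart from Hnf4a, the factors called entered the test only through the endothelial-like cells, so these counts are no separate support. The intervals included 1 for Nr1i3 in library 1 (2.13-fold, 0.822 to 4.98) and in library 2 (2.22-fold, 0.706 to 6.05) and for Onecut1 in library 2 (2.56-fold, 0.798 to 7.22, 6 UMIs), while Onecut1 was below lymphocytes in library 1 (0.376-fold, 0.119 to 0.916, 5 UMIs).

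Nr1i3 ran against the other factors in depth. In shallow hepatocytes it was 34.7 and 26.5 CPM, 3.21-fold (2.64 to 3.92) and 1.99-fold (1.52 to 2.61) above deep hepatocytes. The other 8 factors were lower in shallow than in deep hepatocytes in both libraries, at 0.402 to 0.802 of the deep level in library 1 and 0.374 to 0.760 in library 2, Prox1 being lowest in each. Past 2-fold, 1 of 9 factors was higher in library 1 (Nr1i3), where 5.90% of all genes were, and 3 were lower (Onecut1, Prox1, Nr5a2), where 19.4% were. In library 2, 0 of 8 were higher, where 1.73% were, and 1 was lower (Prox1), where 8.98% were. The median mitochondrial share was 1.70% and 3.46% in shallow and 16.98% and 15.8% in deep hepatocytes, and its part in the difference was not tested.

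Liver lobules grade from the portal field to the central vein, and CAR target enzymes are known from the central side. Deep hepatocytes were ordered within each library by pericentral markers (Glul, Oat, Cyp2e1 and others) as a share of pericentral and periportal marker UMIs, and cut into 3 ranges of near equal size. The median pericentral share was 2.95% in the lowest and 15.3% in the highest range of library 1, and 4.17% and 26.8% in library 2. Periportal markers thus held most of the marker UMIs even in the highest range, where Cyp2f2, a periportal P450, was 1948 and 902 CPM and the pericentral Cyp2e1 812 and 753 CPM. The ranges are therefore relative. Nr1i3 was 19.4 CPM in the highest and 8.49 CPM in the lowest range of library 1, 2.28-fold (1.54 to 3.41) higher. In library 2 it was 24.7 and 7.12 CPM, 3.47-fold (2.06 to 6.002) higher. Foxa2 was 1.29-fold (1.05 to 1.57) and 1.32-fold (0.878 to 1.99) higher in the highest range, while Hnf4a was at 0.972-fold and 0.957-fold and Onecut1 at 1.06-fold and 0.989-fold. Foxa1 differed in direction between the libraries, at 1.42-fold (1.02 to 1.97) and 0.539-fold (0.224 to 1.17), and so did Nr1i2, at 1.13-fold (0.849 to 1.49) and 0.691-fold (0.474 to 0.993), each with an interval that included 1 in 1 library. Median UMIs fell from 31362 to 18608 in library 1 and from 19043 to 8487 in library 2 from the lowest to the highest range, and the part of depth in these ratios was not tested.

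**Figure D4:**
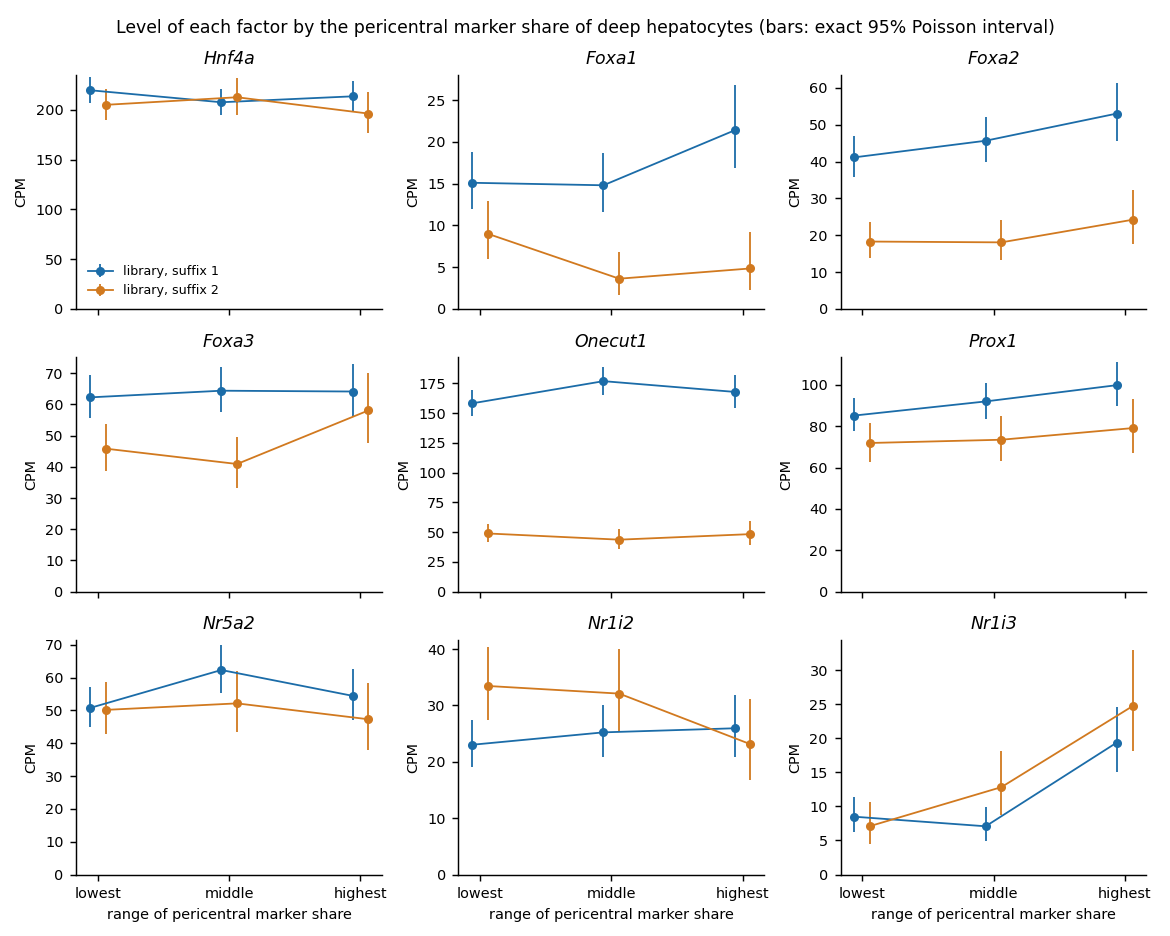
Level of each factor (vertical axis, CPM, from 0) in the lowest, middle and highest ranges of pericentral marker share (horizontal axis) of deep hepatocytes in libraries 1 and 2, with exact 95% Poisson intervals. Nr1i3 was 8.49 CPM in the lowest and 19.4 CPM in the highest range of library 1, and 7.12 and 24.7 CPM in library 2.

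Malat1 is a long noncoding RNA that is retained in the nucleus. Droplets of at least 5000 UMIs and at most 25% mitochondrial UMIs, with no other type's marker list, were used. A set of leukocyte genes, chosen after seeing the data, had also to stay under 1% of non-mitochondrial UMIs. These droplets were grouped by their Malat1 share of non-mitochondrial UMIs, with levels per 1000000 non-mitochondrial UMIs. Those above 2%, 49 in library 1 and 55 in library 2, are called Malat1-rich, and those at or under 0.1%, 373 and 363, Malat1-poor. The rich droplets were shallower, with medians of 7129 and 6115 UMIs, and their hepatocyte markers took 3.48% and 5.15% of UMIs. Their median mitochondrial share was 3.14% and 9.25%, against 12.2% and 13.3% in the poor droplets. Cholangiocyte markers summed to 743 and 893 in them, with 8 of 10 markers at 0 in each library, so they are described as droplets and not as hepatocytes.

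In the rich group Onecut1 differed most between the libraries, but not alone. In library 1 it was 846 (754 to 947, 304 UMIs, seen in 45 of 49 droplets) in the rich group and 137 in the poor group, 6.18-fold (5.40 to 7.07) higher. In library 2 it was 34.0 (17.6 to 59.4, 12 UMIs, seen in 10 of 55 droplets) and 49.9, 0.682-fold (0.347 to 1.22). The ratio of library 1 to library 2 was 24.9 (14.04 to 48.7) in the rich group and 2.75 (2.36 to 3.21) in the poor group. The same ratio in the rich group was 3.93 (1.43 to 13.4) for Foxa2 and 2.43 (1.35 to 4.55) for Foxa3. It was 0.695 (0.522 to 0.922) for Prox1 and 0.452 (0.281 to 0.712) for Nr1i3, and the intervals of the remaining factors included 1. Prox1 was 3.05-fold and 5.93-fold, Nr5a2 3.96-fold and 5.58-fold, Nr1i2 3.52-fold and 4.67-fold and Nr1i3 3.48-fold and 9.89-fold higher in the rich group. Hnf4a was 1.62-fold (1.34 to 1.95) and 1.196-fold (0.960 to 1.48) higher. Of the 9 factors, 5 in library 1 (Onecut1, Prox1, Nr5a2, Nr1i2, Nr1i3) and 4 in library 2 (Prox1, Nr5a2, Nr1i2, Nr1i3) were past 2-fold higher, where 48.6% and 49.7% of all genes were, so the counts are near the background.

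**Figure D5:**
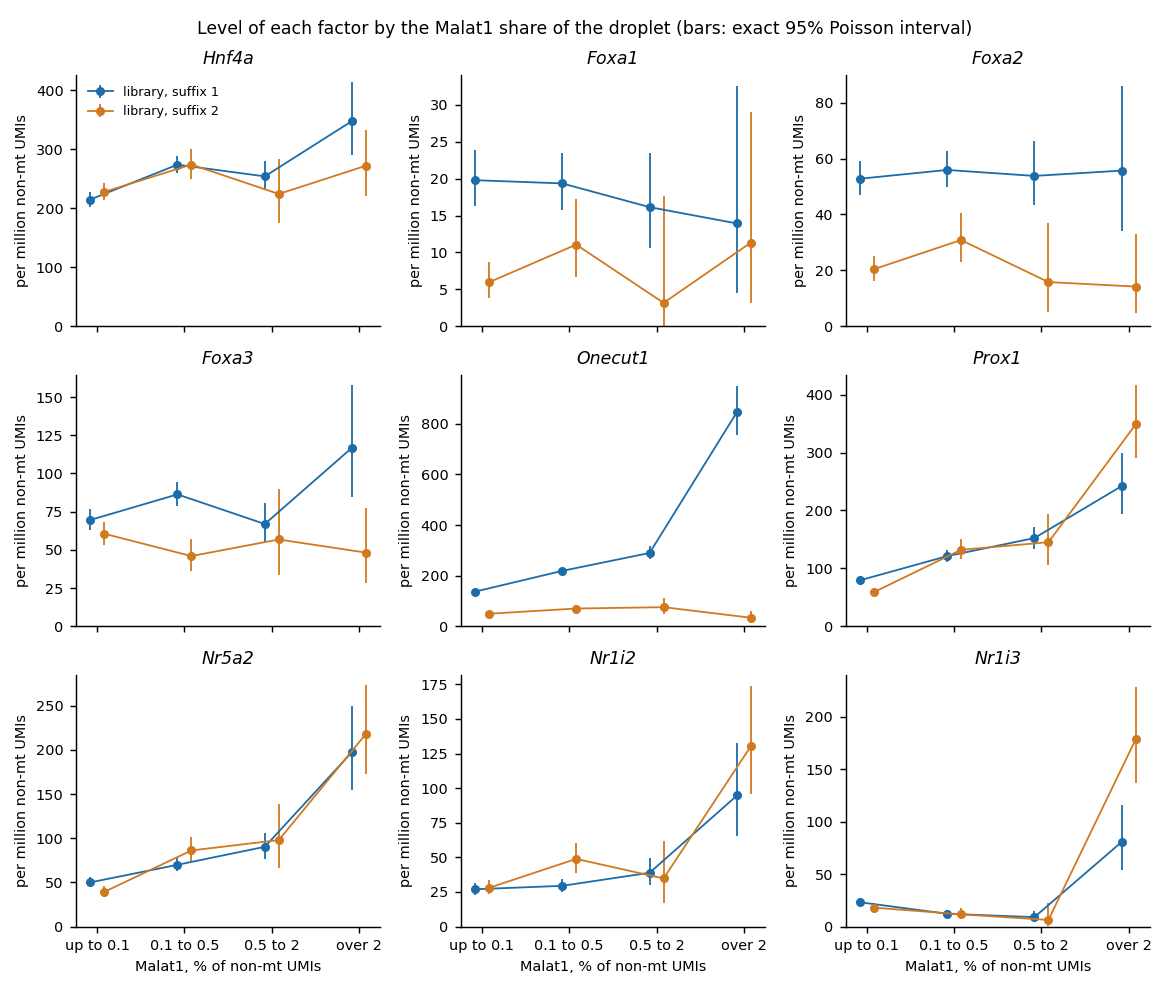
Level of each factor (vertical axis, per 1000000 non-mitochondrial UMIs, from 0) against the Malat1 share of the droplet, in ranges (horizontal axis, percent of non-mitochondrial UMIs), in libraries 1 and 2, with exact 95% Poisson intervals. Onecut1 in the highest range was 846 in library 1 and 34.0 in library 2.

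The lists fixed for the pathways of these factors were counted in deep hepatocytes, where 2.37% of all genes tested were past 2-fold higher in library 1 and 2.18% in library 2. Of the other hepatocyte factors, 21 of 25 were tested, with Esr1, the estrogen receptor (49.4 against 22.6 CPM), and Hhex, an early liver homeobox gene (124 against 57.6 CPM), higher in library 1 and Cebpa higher in library 2. Of HNF4A targets 0 of 10 and of FOXA targets 0 of 6 passed 2-fold either way, with median log2 ratios of 0.16 and -0.13. Of the PXR and CAR targets 4 of 8 were tested, and Cyp3a11 (12.3 against 42.1 CPM) and Cyp2a5 (3.82 against 11.9 CPM), both drug-metabolising P450 enzymes, were higher in library 2. The other 2 tested lay the other way without passing 2-fold, Por, the P450 reductase, at 1.70-fold (1.503 to 1.91) and Alas1, the first enzyme of heme synthesis, at 1.89-fold (1.76 to 2.03) in library 1. Cyp3a11 is also one of the hepatocyte markers used for the gate. Among LRH-1, PROX1 and bile acid genes, Cyp7a1, the rate-limiting enzyme of bile acid synthesis, was 143 against 34.7 CPM, 4.13-fold (3.63 to 4.71) higher in library 1, alone of 7. Of the biliary factors 2 of 7 were tested and 0 passed, and of the immature liver genes 1 of 6 was tested, the fetal RNA H19, at 18.2 against 5.54 CPM.

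Across the 26 combinations of cell type and library, the genes whose log levels ran closest to each factor were listed by Pearson's r, as a description with no test, since the points share libraries, depth and free RNA. Those closest to Hnf4a were Pbld1 (0.905), Kif21a (0.904) and Pex11a (0.896), and those closest to Onecut1 were Clmn (0.909), Tstd1 (0.909) and Sorbs2 (0.896). Prox1 ran closest to Sorbs2 (0.912), Cyb561 (0.898) and Cblc (0.892), of which Sorbs2 is a cholangiocyte marker of the gate. The 16 cholangiocyte-like cells of library 2 were too few to enter, so only library 1 gave such a point, which may carry these values. Nr5a2 ran closest to Nectin2 (0.900), and Foxa1 and Foxa2 both had Eppk1 among their 3 closest (0.920 and 0.901). Nr1i3 had the weakest likeness, L3hypdh at 0.757.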

How the data were processed

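The authors deposited 1 joined matrix of raw UMI counts per gene and barcode, made, per the submitters' processing notes, with Cell Ranger 7.1.0, STAR 2.7.2a and bcl2fastq 2.20.0 on mm10 (GRCm38). The sources used here do not give the strand or intron setting of the counting. The 9 genes and all lists were chosen with earlier results of these data known. The named genes were the 9 members, with genes of the lists named only where a result turned on them, and the 3 genes most like each member.

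Barcodes of at least 500 UMIs, at least 200 genes and at most 25% mitochondrial UMIs were kept. A cell got a type other than hepatocyte from at least 3 of its markers and at least 0.1% of non-mitochondrial UMIs (5% for erythroid cells), with hepatocyte markers under 5%. Hepatocytes had no such type and at least 5% hepatocyte markers. No doublet caller was run. Cells whose second list exceeded 0.5 times the best, 290 and 282, and other types with more hepatocyte markers, 255 and 320, were left out. The marker genes were fixed first and these thresholds were set after seeing the data. Near the hepatocyte limit, 37 and 22 deep cells held 4 to 5% and 13 and 24 held 5 to 6%.

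UMIs were summed over cells and divided by the group total to give CPM, with exact Poisson intervals, conditional binomial intervals for ratios and Clopper-Pearson intervals for shares, in Python 3.11.15 with numpy 2.4.6, scipy 1.17.1 and pandas 2.3.3. A call was a ratio past 2-fold with at least 10 CPM in either group. For a count of 0, what it allows is the upper end of the exact interval. The steps were tested on simulated data. Alternatives changed the mitochondrial limit, the depth limit, the gate (Leiden clusters, scanpy 1.11.5), the averaging, the denominator, the fold, the thinning and free RNA subtraction. The Malat1 groups with their leukocyte gene limit, and the ranges of UMIs and mitochondrial share, were added after seeing the data. Likeness used log2 of CPM plus 10 over types of at least 20 cells in a library, shallow hepatocytes left out.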

Additional observations from a re-analysis of the deposited data

Results flagged for a closer look

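Droplets with over 25% mitochondrial UMIs, which the report left out and which entered only the alternatives with a looser mitochondrial limit, held UMIs of the 9 factors. The 5675 such droplets of library 1 gave a summed level of 411 (397 to 425, 3338 UMIs) per 1000000 non-mitochondrial UMIs, and the 8886 of library 2 gave 206 (198 to 215, 2364 UMIs). On the same scale lymphocytes, the measure of free RNA used in the report, gave 106 (94.9 to 118) and 55.4 (46.4 to 65.5), and deep hepatocytes gave 829 and 579. Onecut1 was 99.1 in library 1 and 20.8 in library 2 in the droplets left out.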

How the results depend on the processing

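The summed level of the 9 factors in deep hepatocytes was 689.6 CPM in library 1 and 494 CPM in library 2. It moved beyond its counting interval with no mitochondrial limit (541 and 298), after subtraction of lymphocyte CPM (588 and 442), without the 13 mitochondrial genes in the total (829 and 579) and at a depth limit of 2000 UMIs (647 and 462). In library 2 it moved also with a 10% mitochondrial limit (359) and with Leiden clusters (519). In cholangiocyte-like cells, Leiden clusters moved it from 1299.5 to 929 in library 1 and from 1185 to 1009 in library 2. The causes were not tested, apart from the smaller total and the subtraction, which act by construction. The count of factors above lymphocytes ran from 7 to 9 in library 1 and from 7 to 8 in library 2, and subtraction of lymphocyte CPM can give no value for it. The share over all genes, 18.4% and 19.3%, was taken at the main setting only, so the other counts have no background beside them. The count past 2-fold between libraries, 3, ran from 2 to 4, the lowest in ranges of UMIs and mitochondrial share chosen after seeing the data. Here too the share over all genes, 2.37% and 2.18%, was taken at the main setting only. With a 10% mitochondrial limit the call took Prox1 and Nr1i2 beside Foxa2 and Onecut1, while Foxa1 (9.59 against 2.54 CPM) was too low to be tested. Over 9 settings the ratio of library 1 to library 2 ran from 3.41 to 4.82 for Onecut1, 2.11 to 4.45 for Foxa2, 2.33 to 3.78 for Foxa1, 1.09 to 3.12 for Prox1, 0.985 to 1.36 for Hnf4a and 0.720 to 2.03 for Nr1i2. Detection shares at another thinning depth or without thinning all left their interval, 36 of 36, since they scale with depth. No paired analysis was possible because each group holds 1 library and no suffix is tied to a sample.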
